A study of Mus musculus with 2 samples.

Results

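The Toll-like receptor genes are described here in the promoter-associated histone mark H3K4me3 (trimethylation of lysine 4 of histone H3) in macrophages. The members are the 10 genes Tlr1 to Tlr9 and Tlr13, taken by name out of 21938 protein-coding genes in the GENCODE M21 annotation, and all 10 were found in it. They were split by where the proteins act into 5 surface receptors (Tlr1, Tlr2, Tlr4, Tlr5 and Tlr6) and 5 endosomal receptors (Tlr3, Tlr7, Tlr8, Tlr9 and Tlr13). The series measured H3K4me3 by chromatin immunoprecipitation and sequencing (ChIP-seq) in unstimulated bone marrow-derived macrophages of strain C57BL/6J. There is 1 group of 2 biological replicates, with no treatment, no genetic change and no comparison group, so every cell studied was unstimulated. Age, stage and sex of the mice are not recorded, both replicates carry the same donor entry, and nothing says that the cells came from separate animals, so a spread between replicates may be technical. Macrophages of this kind are grown from marrow in culture and are not a tissue population.

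Toll-like receptors are pattern-recognition receptors that bind molecules of microbes through leucine-rich repeats and signal inward through a Toll/interleukin-1 receptor domain. Receptors at the cell surface mostly bind bacterial products such as lipoproteins, lipopolysaccharide and flagellin, whereas those of endosomes bind RNA or DNA that has been taken up. H3K4me3 collects on the nucleosomes around the starts of genes that are transcribed or ready to be, and CpG-rich promoters tend to carry it in most cell types.

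A member was called marked when a peak touched the 1000 bp on either side of any of its annotated transcript starts by at least 1 bp in each replicate's own peak list. Distances are given from the most upstream start of a protein-coding transcript, with downstream positive. Each peak carries the authors' fold enrichment. Because the 2 lists differ in scale, the fold is also given as a percentile, which is the percent of the peaks of that list with a lower fold and, since the lists differ in length, shows a rank and not a change. The lists held 20031 peaks with a median fold of 21.7 in replicate 1 and 16376 peaks with a median fold of 10.7 in replicate 2. The peak lists give no read counts, so the depth behind each value is unknown. The macrophage marker genes Csf1r, Adgre1, Itgam, Cd68, Mertk and Fcgr1 were marked in 6 of 6 cases. No marker of plasmacytoid dendritic cells (0 of 4), neutrophils (0 of 5) or fibroblasts (0 of 4) was marked in both replicates. Of the B cell genes, Cd79a, Ms4a1 and Pax5 had no peak in either replicate and Cd79b had one in replicate 1 only, with a fold of 4.18. Cd3d was the 1 marked gene of 3 T cell genes that could be matched. Siglech, a defining gene of plasmacytoid dendritic cells, had no peak in either replicate.

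The promoter sequences below show the range of CpG content in the family. RefSeq promoter windows, 250 bases before to 50 after the start on GRCm38.p6, were found for 8 of the 10 members; Tlr4 and Tlr7 had no entry. Printed are 2 surface and 2 endosomal receptor genes, 5′ to 3′ on the strand of the gene, with CpG dinucleotides in capitals. The windows are Tlr2 at chr3:83841559-83841858 on the minus strand, Tlr5 at chr1:182954538-182954837 on the plus strand, Tlr8 at chrX:167264280-167264579 on the minus strand, and Tlr9 at chr9:106222348-106222647 on the plus strand.
Tlr2: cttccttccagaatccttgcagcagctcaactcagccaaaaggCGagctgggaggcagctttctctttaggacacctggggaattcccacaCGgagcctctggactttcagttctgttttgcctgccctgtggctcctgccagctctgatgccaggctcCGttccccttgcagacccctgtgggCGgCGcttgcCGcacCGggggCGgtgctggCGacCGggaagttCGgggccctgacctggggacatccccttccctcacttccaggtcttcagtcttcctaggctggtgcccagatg
Tlr5: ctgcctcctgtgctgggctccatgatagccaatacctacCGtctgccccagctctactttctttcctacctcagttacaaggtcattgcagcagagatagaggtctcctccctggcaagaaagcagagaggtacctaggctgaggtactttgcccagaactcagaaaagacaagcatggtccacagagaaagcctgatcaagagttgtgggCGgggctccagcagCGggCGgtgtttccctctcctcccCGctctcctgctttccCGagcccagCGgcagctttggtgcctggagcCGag
Tlr8: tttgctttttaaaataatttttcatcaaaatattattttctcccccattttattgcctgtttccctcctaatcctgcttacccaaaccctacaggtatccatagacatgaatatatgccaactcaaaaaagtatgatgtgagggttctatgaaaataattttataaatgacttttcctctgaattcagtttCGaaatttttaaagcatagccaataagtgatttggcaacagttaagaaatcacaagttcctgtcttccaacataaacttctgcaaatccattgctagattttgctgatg
Tlr9: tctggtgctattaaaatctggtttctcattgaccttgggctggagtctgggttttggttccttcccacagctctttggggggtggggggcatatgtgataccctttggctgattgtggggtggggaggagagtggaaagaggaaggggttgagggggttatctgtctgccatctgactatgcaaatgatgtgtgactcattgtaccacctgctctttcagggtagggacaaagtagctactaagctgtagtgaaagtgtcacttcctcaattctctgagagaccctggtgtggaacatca
The Tlr2 window holds 11 CpG dinucleotides and the Tlr5 window 8, most of them in the later part of the window. The Tlr8 window holds 1 and the Tlr9 window 0. The 4 were chosen to show high and low counts, and the windows not printed do not follow the classes. Tlr3, an endosomal receptor gene, has 10 CpG dinucleotides and Tlr13 has 5, while the surface gene Tlr1 has 3 and 9 in its pair of windows and Tlr6 has 5 and 7. Over 32817 RefSeq promoter windows of the same length the median was 7, and 5.43% held none. Replicate 1 had all 300 bases of the Tlr2 and Tlr5 windows inside a peak, 191 bases of the Tlr8 window and 93 bases of the Tlr9 window. In replicate 2 the Tlr2 and Tlr5 windows again lay wholly inside a peak, the Tlr8 window for 38 bases and the Tlr9 window for 0.

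Nearly all of the 10 members carried H3K4me3 at their promoters in unstimulated macrophages. The members were chosen with earlier results of these data known. They leave out Tlr11 and Tlr12, the other mouse family members, which had no promoter peak in any of the 4 lists. Tlr11 and Tlr12 were placed in neither the surface nor the endosomal class, so no class count includes them. In both replicates 9 of 10 members were marked, against 49.5% of all protein-coding genes (10869 of 21938). All 5 surface receptor genes were marked and 4 of the 5 endosomal ones, the exception being Tlr9. Widening the search to 10 kb on either side of a start left the count at 9 of 10 members, against 54.4% of all protein-coding genes. The authors' replicated list, made from both replicates, placed a peak at all 10 members, against 51.3% of all protein-coding genes. These are counts in 1 condition, and no test was made. In bulk chromatin a mark in few of the cells and a weaker mark in all of them cannot be told apart.

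**Figure D1:**
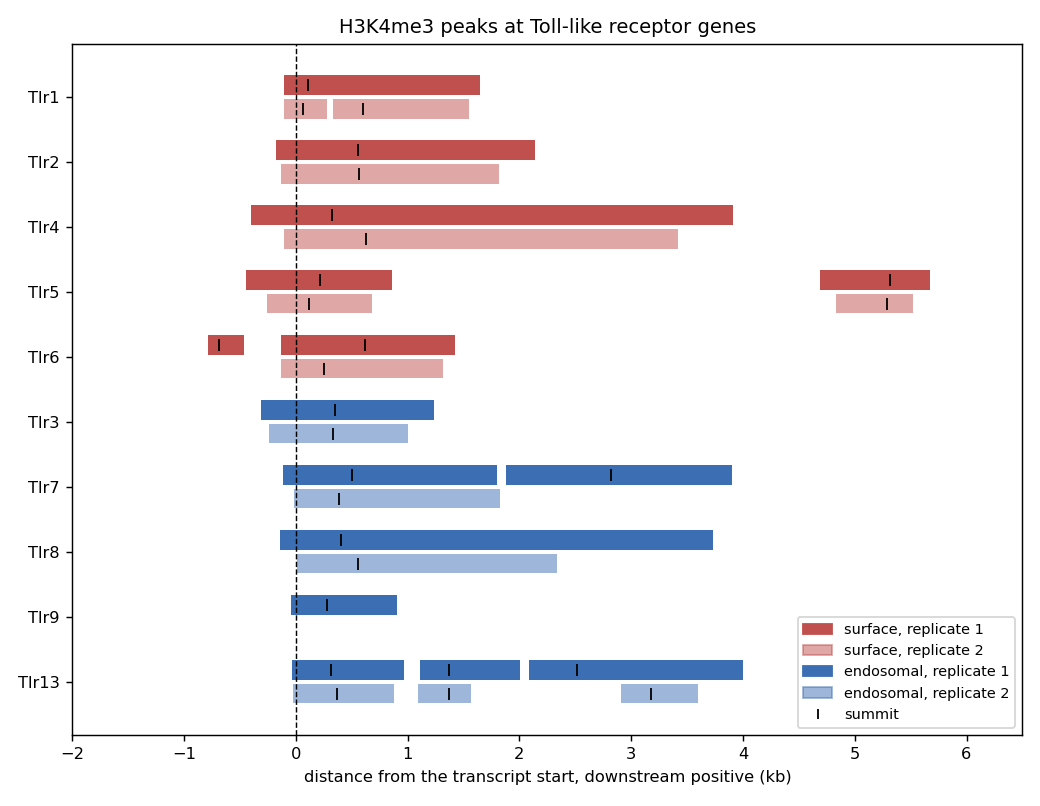
Peaks of each replicate's own list at the 10 members, drawn by distance from the transcript start in kb (x axis), with surface receptor genes above endosomal ones, replicate 1 in full colour and replicate 2 pale. Bars are peaks and ticks their summits; Tlr9 has a bar in replicate 1 only, Tlr5 has a pair of bars near +5 kb, and the peak of a neighbouring gene about 9 kb upstream of Tlr6 lies outside the axis.

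Among the surface receptors, Tlr2 and Tlr4 had the strongest peaks of the family. Tlr2, the receptor for bacterial lipoproteins, lies at chr3:83836272-83841767 on the minus strand (GENCODE M21, mm10). Its promoter peak had a fold of 49.9 in replicate 1 and 18.8 in replicate 2, at percentiles 91.4 and 85.0 of the lists. The peak was 2318 bp wide in replicate 1 and 1948 bp wide in replicate 2, with summits 553 and 563 bp downstream of the start.

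Tlr4, the receptor for lipopolysaccharide, lies at chr4:66827584-66930284 on the plus strand. It had a fold of 47.1 in replicate 1 and 20.1 in replicate 2, at percentiles 87.7 and 89.1. Its single peak spanned 4313 bp in replicate 1 and 3529 bp in replicate 2, the widest of all members in both replicates, and reached 3911 and 3420 bp downstream. Tlr2 and Tlr4 were the only members above the median of the 10869 marked genes in each replicate. Ranked among those genes by fold, Tlr2 stood at percentiles 80.4 and 73.1 and Tlr4 at 72.8 and 79.8.

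Tlr1 and Tlr6 encode the partners with which Tlr2 forms heterodimers, and they lie near each other on chromosome 5, on the minus strand at chr5:64924679-64933563 and chr5:64952031-64960097. Tlr1 had a fold of 12.9 in replicate 1 and 5.80 in replicate 2, at percentiles 36.0 and 23.2. Tlr6 had a fold of 26.4 in replicate 1 and 9.15 in replicate 2, at percentiles 56.9 and 42.8. Both partners thus ranked below Tlr2 in each replicate. At Tlr1 the region was a single peak of 1750 bp in replicate 1, and in replicate 2 it was split into peaks of 1214 and 379 bp with nearly equal folds of 5.80 and 5.78. Tlr6 had a main peak of 1561 bp in replicate 1 and 1448 bp in replicate 2. Replicate 1 alone added a weak peak of 315 bp upstream of the Tlr6 start, with a fold of 4.07.

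Tlr5, the flagellin receptor, lies at chr1:182954788-182976044 on the plus strand. Its promoter peak had a fold of 25.04 in replicate 1 and 7.93 in replicate 2, at percentiles 54.8 and 35.7. The peak was among the narrower ones, at 1308 bp in replicate 1 and 936 bp in replicate 2. The replicate 1 to replicate 2 ratio of fold, 3.16, exceeded that of 94.3% of marked genes, for which the median ratio was 2.56.

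Among the 5 endosomal members, Tlr3 ranked highest and Tlr9 lowest. Tlr3, which binds double-stranded RNA, lies at chr8:45395665-45411080 on the minus strand. It had a fold of 31.5 in replicate 1 and 10.7 in replicate 2, at percentiles 64.4 and 50.5, with widths of 1548 and 1244 bp. An antisense transcript, Gm45542, starts 313 bp from a Tlr3 start inside the same window, so the peak cannot be assigned to Tlr3 alone.

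Tlr7, Tlr8 and Tlr13 are receptors for single-stranded RNA, Tlr13 binding bacterial ribosomal RNA in mice, and all 3 lie on the X chromosome. Tlr7 and Tlr8 are neighbours there on the minus strand, at chrX:167304929-167330558 and chrX:167242696-167264329, and Tlr13 lies apart on the plus strand at chrX:106143204-106160493. Tlr7 had a fold of 16.4 in replicate 1 and 5.74 in replicate 2, at percentiles 41.9 and 22.4. Tlr8 had a fold of 23.4 in replicate 1 and 8.35 in replicate 2, at percentiles 52.2 and 37.9. Tlr13 was close to Tlr8, with a fold of 23.2 in replicate 1 and 8.88 in replicate 2, at percentiles 51.9 and 40.8. Of the 948 protein-coding genes of the X chromosome 34.1% were marked in both replicates. The marked X-linked genes had a median percentile of 58.9 in replicate 1 and 47.3 in replicate 2, and the marked autosomal genes 76.4 and 70.5. The sex of the mice was not collected, so the number of X copies behind these values is unknown.

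Tlr9, which binds DNA rich in unmethylated CpG, lies at chr9:106222598-106226883 on the plus strand and had the weakest mark of the 10 members. Replicate 1 had a peak of 950 bp with a fold of 10.8, at percentile 31.8, over chr9:106222555-106223504. Replicate 2 had no peak there, and its nearest peak lay 17967 bp from the Tlr9 start. Among marked genes the peak of replicate 1 ranked at percentile 2.90 by fold. Tlr9 was present in the authors' pooled list, with a fold of 6.70 and a width of 883 bp, and in the replicated list with the same bounds. A peak of replicate 1 only was found at 4.00% of protein-coding genes (878 of 21938), and 42.4% of those genes had a peak in the replicated list (372 of 878). The absence of Tlr9 from the list of replicate 2 is an absence of a call. The threshold used for calling is unknown here, and the lowest fold in the list of replicate 2 was 2.05.

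**Figure D2:**
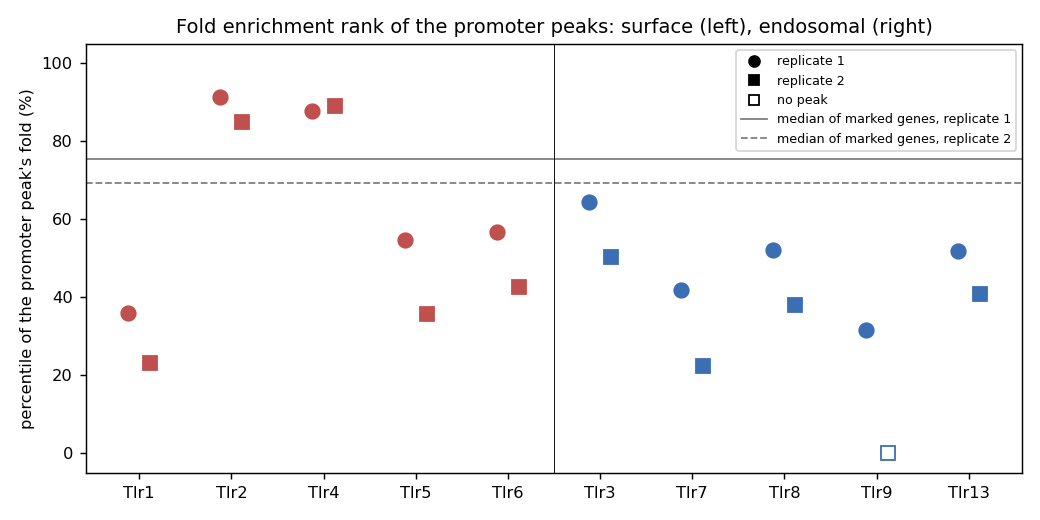
Percentile of the promoter peak's fold within each replicate's list (y axis, percent) for each member, circles for replicate 1 and squares for replicate 2, with surface genes left of the line and endosomal genes right of it. Horizontal lines are the medians of the 10869 marked genes; Tlr2 and Tlr4 lie above them, and the open square is Tlr9, which has no peak in replicate 2.

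By the mean percentile of fold over the 2 replicates, Tlr4 (88.4 ± 0.991, SD, n = 2) and Tlr2 (88.2 ± 4.51) were level. A gap followed to Tlr3 at 57.5 ± 9.86, which was wider than the spread of either. From Tlr3 down, each step to the next gene was smaller than the larger SD of the pair, though not always than the smaller. Below Tlr3 came Tlr6 at 49.8 ± 9.96, Tlr13 at 46.4 ± 7.85, Tlr5 at 45.3 ± 13.5 and Tlr8 at 45.1 ± 10.1. Tlr7 at 32.2 ± 13.8, Tlr1 at 29.6 ± 9.04 and Tlr9 at 15.9 ± 22.5, with its missing peak at 0, closed the order. These spreads include a shift between the lists, since every member but Tlr4 had its higher percentile in replicate 1. They therefore do not measure the error of a difference between genes. Tlr3 lay above Tlr6 in each replicate, at 64.4 against 56.9 in replicate 1 and at 50.5 against 42.8 in replicate 2. The order of single genes differed somewhat between replicates, but Tlr2, Tlr4, Tlr3 and Tlr6 held the first 4 places in both. In replicate 1 the folds of 7 of 10 members fell below the lower quartile of marked genes, and in replicate 2 those of 6 of 9.

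The surface and endosomal receptor genes overlapped in fold. The median percentile was 56.9 for surface genes and 51.9 for endosomal genes in replicate 1, and 42.8 for surface genes and 37.9 for endosomal genes in replicate 2. The surface minus endosomal difference averaged 4.88 percentage points, with Tlr9 entered at 0 in replicate 2. That difference is small beside the range within each class, from 36.0 to 91.4 among surface genes and from 31.8 to 64.4 among endosomal genes in replicate 1. With the authors' pooled list in place of the replicates' lists it was 1.91 points.

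In width the classes also overlapped, and the sign of the difference depended on the replicate and on the joining of peaks. Peaks within 1000 bp of each other were joined into a region. Surface genes had a median region of 2207 bp and endosomal genes one of 3874 bp in replicate 1, while in replicate 2 surface genes had 1649 bp and endosomal genes 1592 bp. The surface minus endosomal difference averaged -805 bp with an SD of 1219 bp between replicates. Without replicate 1 it was 57 bp, and without replicate 2 it was -1667 bp. Without joining it was 203 bp.

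The wide endosomal regions were those of Tlr7, Tlr8 and Tlr13. Tlr7 spanned 4016 bp in replicate 1 and 1846 bp in replicate 2. Tlr8 spanned 3874 bp in replicate 1 and 2321 bp in replicate 2. Tlr13 spanned 4030 bp in replicate 1 and 1592 bp in replicate 2. Their replicate 1 to replicate 2 width ratios, 2.18 for Tlr7, 1.67 for Tlr8 and 2.53 for Tlr13, were the 3 largest of the family, and the median ratio of marked genes was 1.19. Marked genes of the X chromosome had a median ratio of 1.28 and autosomal ones 1.19. Those of the lowest of 3 CpG groups, defined below, which also holds Tlr7, Tlr8 and Tlr13, had one of 1.26. At Tlr7 the extra width in replicate 1 was a separate weak peak, 1880 to 3897 bp downstream, with a fold of 5.54. At Tlr13 the promoter peak itself measured 1001 bp in replicate 1 and 895 bp in replicate 2, and weaker peaks followed it within the gene in both. In replicate 1 these had folds of 8.03 and 5.18, and in replicate 2 folds of 4.05 and 3.002, with the last one too far off to be joined. Only Tlr8 had its extra width in a single peak.

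**Figure D3:**
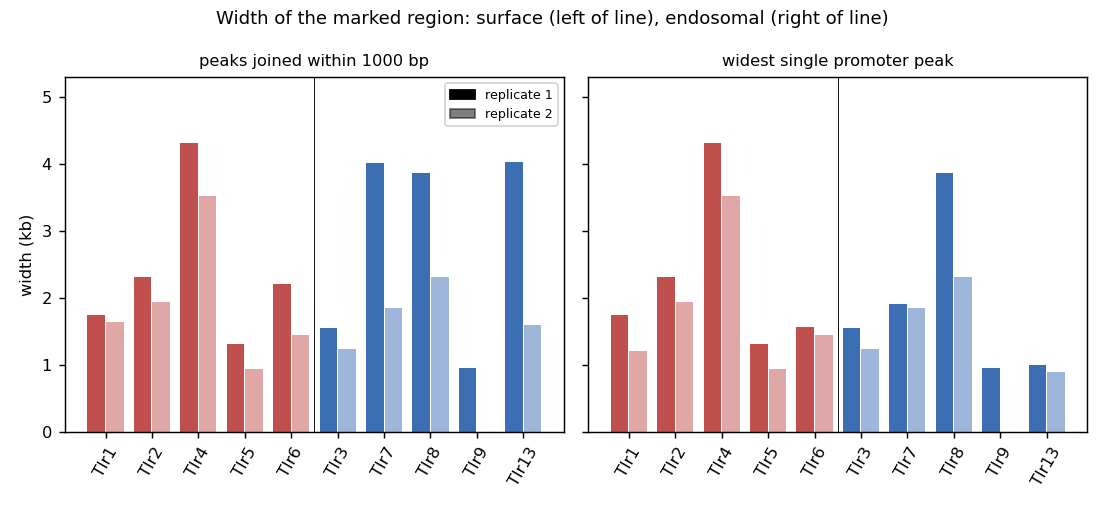
Width in kb (y axis, from 0) of the marked region of each member, surface genes left of the line and endosomal genes right of it, replicate 1 in full colour and replicate 2 pale, with peaks joined within 1000 bp in one panel and the widest single promoter peak in the other. The tall replicate 1 bars of Tlr7 and Tlr13 appear only where peaks are joined, at 4016 and 4030 bp, and are 1913 and 1001 bp wide unjoined.

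The mark lay mainly downstream of the start at every member. All 10 members with a peak in replicate 1, and all 9 in replicate 2, had the summit of the strongest promoter peak downstream, from 106 to 616 bp and from 114 to 625 bp. Of marked genes in general 81.2% had a downstream summit in replicate 1 and 81.5% in replicate 2, and of those with no other gene start within 5 kb 89.9% and 90.4%. The share of the joined region that lay downstream had a median of 93.0% over the members in replicate 1 and 93.7% in replicate 2. For marked genes with no other start nearby that median was 72.4% and 80.0%. For marked genes of the lowest of 3 CpG groups, which holds 5 of the members, it was 100% in both replicates. For the middle group, which holds the other 5, it was 70.3% and 76.4%. The 100% is not a like comparison, since the typical region of the lowest group began past the start. The median upstream reach of that group was -53 bp in replicate 1 and -309 bp in replicate 2. Its median summit lay 1042 and 1128 bp downstream. Upstream, the members' regions reached 32 to 783 bp in replicate 1. In replicate 2 they reached at most 254 bp, and that of Tlr8 began 12 bp past the start. At Tlr4, Tlr7 and Tlr8 the region covered the start codon in both replicates, 248, 494 and 535 bp from the start by distance on the genome. At Tlr9, with its start codon 106 bp away, the region of replicate 1 covered it. In the other 6 members the start codon lay beyond the region, 2993 bp away in Tlr2 and 17647 bp away in Tlr5. The coding sequence of 8 of the members sits almost wholly in 1 exon, with 98.5% or more of it there for Tlr1, Tlr2, Tlr5, Tlr6, Tlr7, Tlr8, Tlr9 and Tlr13, against 89.7% for Tlr4 and 68.3% for Tlr3.

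The classes also differed in CpG content around the 5′ end, by an amount that depended on the window. The CpG ratio is the number of CpG dinucleotides over that expected from the C and G content, taken here over the 1000 bp before and after the gene's 5′ end. It was 0.294 at Tlr1, 0.408 at Tlr2, 0.281 at Tlr4, 0.301 at Tlr5 and 0.547 at Tlr6. At the endosomal receptor genes it was 0.242 at Tlr3, 0.202 at Tlr7, 0.137 at Tlr8, 0.146 at Tlr9 and 0.116 at Tlr13. In this window, and in one of 500 bp before and after, the values of the classes did not overlap. In the window of 250 bp before to 50 bp after the 5′ end they did. There Tlr13 at 0.350 and Tlr7 at 0.289 lay above Tlr1 at 0.253, Tlr2 at 0.263 and Tlr4 at 0.240, and Tlr13 also lay above Tlr5 at 0.328. Over 1000 bp the medians were 0.301 for surface and 0.146 for endosomal genes, a difference of 0.155. These are properties of 5 genes a class and not measurements with an error.

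Split into 3 equal groups over all protein-coding genes at 0.278 and 0.604, the CpG ratio put all 5 surface genes in the middle group and all 5 endosomal genes in the lowest. Tlr4 at 0.281 and Tlr3 at 0.242 were the members nearest to the lower bound on either side. In the middle group all 5 members were marked, against 56.0% of its 7312 genes. In the lowest group 4 of 5 members were marked, against 12.1% of its 7313 genes (885). Tlr11 and Tlr12, which are not among the members, also fell in this group and were not marked. The median ratio was 0.261 over the members and 0.624 over genes marked in both replicates, so the family as a whole was poorer in CpG than most genes carrying the mark. GC content did not follow the classes in the same way. Tlr5 had a GC content of 54.0% and Tlr9 one of 53.8%, the highest of the family, while Tlr8 had the lowest at 38.2%. The Tlr3 ratio of 0.242 was taken around its 5′ end at position 45411080, which lies outside its promoter peak in both replicates. It depended on which transcript start was used, with a largest value of 0.409 over the 8 distinct starts. That value would place Tlr3 among the surface genes and in the middle group.

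**Figure D4:**
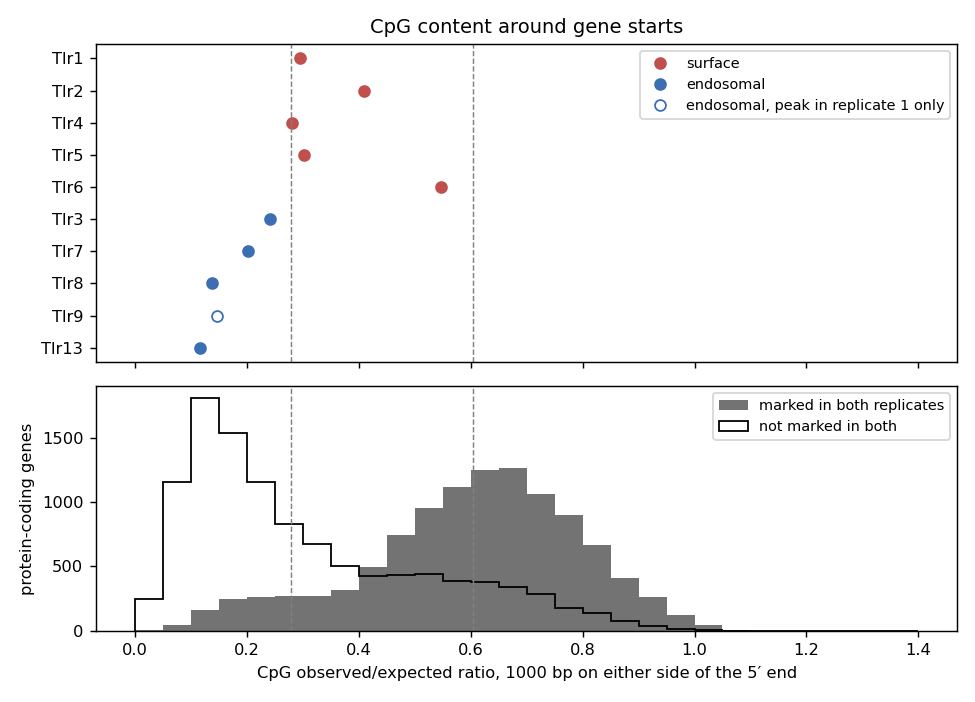
CpG observed/expected ratio over the 1000 bp before and after the 5′ end (x axis) for the 10 members, surface genes above endosomal ones, over the number of protein-coding genes at each ratio, filled for genes marked in both replicates and outlined for the rest. Dashed lines are the bounds of the CpG groups at 0.278 and 0.604; the 5 endosomal genes lie left of the lower line and the 5 surface genes right of it.

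Short motifs were looked for in the RefSeq promoter windows on both strands. A GGNNNTTCC match, the kind of site bound by NF-κB, was present in 4 of the 8 members with a window (Tlr2, Tlr3, Tlr5 and Tlr6), and in 18.5% of all windows. In Tlr2 it matched both strands at almost the same place, from positions -172 and -171, so that the 2 matches overlap. GAGGAAGT, a form of the site of the macrophage factor PU.1, was present in Tlr1 and Tlr9, against 3.20% of all windows. Its core GAGGAA, which is contained in it, was present in Tlr1, Tlr8, Tlr9 and Tlr13, and in 28.3% of all windows. TTGCNNAA, of the C/EBP kind, was present in Tlr3, Tlr6, Tlr8 and Tlr13, and in 10.8% of all windows. GAANNGAAA, of the interferon regulatory factor kind, was present in Tlr2 and in 7.52% of windows, and TGANTCA, of the AP-1 kind, in Tlr9 and in 7.81%. TATAAA was present in Tlr6 and Tlr8, against 13.6% of all windows. In Tlr6 and Tlr8 its matches lay 89 or more bases before the start. These are matches of letters only, and Tlr1 and Tlr6 have a pair of windows each.

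Tlr5 was the only member with a peak inside its own gene that stood apart from the promoter in both replicates and joined no promoter region. In replicate 1 it spanned 988 bp with a fold of 15.2, at percentile 40.2, and in replicate 2 it spanned 693 bp with a fold of 8.09, at percentile 36.5. In replicate 2 that fold was slightly above the 7.93 of the Tlr5 promoter peak, while in replicate 1 it was below the promoter's 25.04. The summits lay 5316 and 5288 bp downstream of the start. In the pooled list the peak covers chr1:182959497-182960414, where no exon of any GENCODE M21 gene lies. The first intron of the Tlr5 transcript used here is 14131 bp long. The nearest annotated transcript start was 4669 bp away in GENCODE and 3430 bp away in RefSeq. The CpG ratio of the 918 bp was 0.517 with 29 CpG dinucleotides, above that around the Tlr5 5′ end. The 200 bases around the pooled summit, chr1:182959977-182960176 on the plus strand of GRCm38.p6, hold 6 of them, in capitals, and are shown because the peak holds no annotated start.
Tlr5 intronic peak: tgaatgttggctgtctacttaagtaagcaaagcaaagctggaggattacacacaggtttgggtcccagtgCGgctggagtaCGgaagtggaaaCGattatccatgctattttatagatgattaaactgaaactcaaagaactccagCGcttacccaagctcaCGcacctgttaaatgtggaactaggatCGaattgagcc

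The only peak of another coding gene within 10 kb of a member start was upstream of Tlr6. The coding gene Fam114a1 starts 9974 bp upstream of Tlr6, with the microRNA gene Mir574 beside it. Its peak had a fold of 38.5 in replicate 1 and 14.0 in replicate 2, higher than that of Tlr6 in both. Counting it for Tlr6, as the wider window does, raised the surface minus endosomal difference in fold percentile to 25.1 points.

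Tlr11 and Tlr12, the remaining mouse family members, which bind profilin of protozoan parasites, had no promoter peak in any of the 4 lists. At Tlr11 on chromosome 14 the nearest peak of replicate 1 lay 295033 bp away, and the neighbouring olfactory receptor gene Olfr735 was not marked either. At Tlr12 on chromosome 4 the nearest peak lay 7926 bp away in replicate 1 and 7958 bp away in replicate 2. That peak sits at the start of the neighbouring coding gene Zscan20, which was marked in both replicates. The CpG ratios of Tlr11 and Tlr12, 0.102 and 0.231, were in the lowest CpG group with those of the 5 endosomal members, 4 of which were marked.

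The genes that serve these receptors were marked about as widely, and the median rank of each list was higher, though only slightly for the co-receptors. Of 35 genes in 5 lists 31 were marked in both replicates, against the 49.5% of all protein-coding genes, 2 had a peak in replicate 1 only and 2 had none. The windows of these genes can hold the start of another gene, which was not separated. The median of the mean fold percentile was 45.8 over the 10 receptors and 50.4 over 6 genes for co-receptors and ligand transfer. It was 77.1 over 8 genes for folding and trafficking, 86.6 over 5 endosomal proteases, 75.6 over 12 adaptors and kinases, and 60.8 over 4 negative regulators. Each list also held genes below the median of the receptors. Marked genes in general had a median percentile of 75.5 in replicate 1 and 69.4 in replicate 2. The 35 genes were richer in CpG, with a median ratio of 0.463 against 0.261 for the receptors. Whether that bears on the ranks was not tested.

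**Figure D5:**
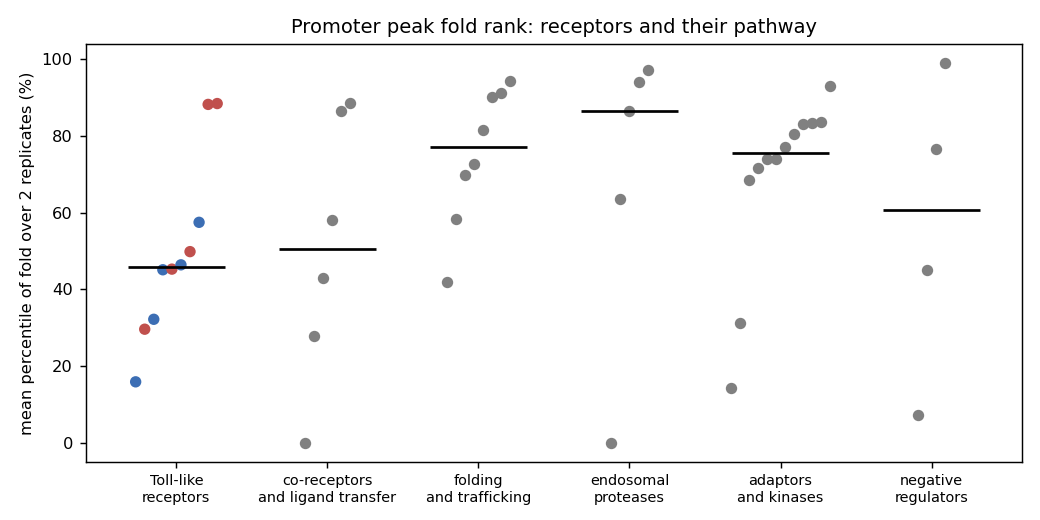
Mean percentile of fold over the 2 replicates (y axis, percent) for each of the 10 members and each gene of 5 lists of pathway genes, with a horizontal line at each median and genes without a peak at 0. Red and blue points are surface and endosomal receptors; their median of 45.8 lies below those of the other lists.

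Among the co-receptors, Cd14, which hands lipopolysaccharide to the receptor complex, had a fold of 48.0 in replicate 1 and 19.7 in replicate 2, much like Tlr4 itself. Cd180, a relative of Tlr4 without a signalling domain, had 46.6 and 18.9. Ly96, the subunit that binds lipopolysaccharide together with Tlr4, had 30.6 and 11.4. Lbp, the plasma protein made mainly by liver, had no peak. For folding and trafficking all 8 genes were marked. The chaperone gene Hsp90b1 had folds of 50.8 and 23.4 in replicates 1 and 2, Cnpy4 had 47.1 and 22.6, and Unc93b1, which escorts the endosomal receptors out of the endoplasmic reticulum, had 48.5 and 20.6. Unc93b1 thus exceeded all 5 of the endosomal receptors in both replicates.

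Of the endosomal proteases 4 of 5 were marked. The cathepsin gene Ctsb had folds of 53.5 and 27.3 in replicates 1 and 2 over a region of 9846 and 7350 bp, wider than that of any receptor. Lgmn, encoding an asparagine endopeptidase, had 53.2 and 21.7, Ctsl had 47.1 and 18.9, and Ctsk, a cathepsin best known from osteoclasts, had no peak. Of the adaptors and kinases 11 of 12 were marked. They were led by Pik3ap1 with folds of 55.3 and 20.4, Traf6, a ubiquitin ligase, with 43.0 and 18.8, and Ticam1, the adaptor of Tlr3 and Tlr4, with 46.3 and 17.4. Sarm1, an adaptor best known from neurons, had a peak of 905 bp with a fold of 9.34 in replicate 1 only. Of the negative regulators 3 of 4 were marked. Tollip had folds of 63.3 in replicate 1, the highest of the 35 genes, and 25.5 in replicate 2, where Ctsb was higher. Tnfaip3, a ubiquitin-editing enzyme, had 41.7 and 15.8, and Rnf216 had 23.2 and 8.35. Sigirr, an inhibitory receptor of the interleukin-1 receptor family, had a peak of 802 bp with a fold of 5.60 in replicate 1 only.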

How the data were processed

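H3K4me3 ChIP-seq of 2 biological replicates of 1 group was used as peak lists; each library began with 10 ng of DNA, per the labels. The authors deposited 4 lists on mm10, 1 for each replicate from its own alignments, a pooled one and a replicated one from both, per the provenance texts deposited with them. No aligner, peak caller, threshold or read depth is given in the sources used here, so no interval is stated. Each peak's fold, a ratio of enrichment, its −log10 p-value and its summit offset are the authors' deposited values, used to describe and rank peaks within a list. Of the 16957 peaks of the replicated list 16890 have the same bounds in the pooled list, so the 2 are not independent, and both rest on the same libraries as the replicates' lists.

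Genes and starts came from GENCODE M21 and sequence from GRCm38.p6, the same build as mm10; 0 peak ends lay beyond a chromosome. Only the 19 autosomes, X and Y were used. A gene with several peaks at its starts took the highest fold and the widest region after joining peaks within 1000 bp; an unmarked gene entered class medians at 0. Promoter windows came from RefSeq (GRCm38.p6). The tables were made with Python 3.11.15, pandas 2.3.3, numpy 2.4.6 and matplotlib 3.10.9; the overlap, joining and CpG routines were tested on simulated data. No test was made, since there is 1 condition. The members and lists were chosen with earlier results of these data known. The genes named are the 10 members, Tlr11 and Tlr12, coding neighbours starting within 10 kb, and from each pathway list the 3 marked genes of highest mean fold percentile and each gene not marked in both replicates. Alternatives varied the window, overlap, starts, list, number of peaks, joining, replicate and CpG window.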

Additional observations from a re-analysis of the deposited data

How the results depend on the processing

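The count of marked members stayed between 9 and 10 and that of surface genes at 5 in all 10 alternatives, and Tlr9 alone decided whether 4 or 5 endosomal genes were counted: 5 in the authors' pooled and replicated lists and without replicate 2, otherwise 4. The surface minus endosomal width, -805 bp, changed sign to 129.5 bp with the 15000 peaks of highest −log10 p, to 203 bp with no joining, which splits regions of Tlr1, Tlr6, Tlr7 and Tlr13, and to 57 bp without replicate 1, against -1667 bp without replicate 2. It kept its sign in the other 9 alternatives that use both replicates or the authors' lists. For the change with 15000 peaks the cause was not tested. The difference in fold percentile, 4.88 points, stayed positive throughout. It was 25.1 with a window of 10000 bp, where Tlr6 takes the peak of its neighbour, 4.08 over marked members only, 3.85 with the mean fold, 2.13 in the replicated list and 1.91 in the pooled list. The CpG difference, 0.155, was 0.210 over 500 bp on either side, 0.130 over 250 bp before to 50 bp after the 5′ end, where the classes overlapped, and 0.119 with the largest ratio over the starts. No paired analysis was possible because there is 1 group. Depth is unknown, so a missing peak is a missing call and not an absence of the mark.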
